A study of Homo sapiens with 8 samples.

Results

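The transcription factors of the epithelial-mesenchymal transition (EMT) described here are 10 genes: the zinc-finger factors SNAI1, SNAI2, ZEB1 and ZEB2, the basic helix-loop-helix (bHLH) factors TWIST1 and TWIST2, the homeobox factor PRRX1, the forkhead factor FOXC2, and the E proteins TCF3 and TCF4. They were chosen by symbol, with every RefSeq transcript of each, and make up 10 of the 25166 genes and 31 of the 48175 transcripts in the deposited expression table. The 4 genes SNAI1, SNAI2, TWIST1 and FOXC2 have a single transcript there, and the other 6 have several.

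RNA was sequenced from HMLE cells, a human mammary epithelial line immortalised with telomerase and a viral early region. The cells carried a lentivirus and were selected with puromycin at 0.5 µg/mL. Of the 8 libraries, 2 were from SOX4-shRNA cells given TGF-β for 16 h, 2 from untreated SOX4-shRNA cells, 2 from scrambled-shRNA cells given TGF-β for 16 h and 2 from untreated scrambled-shRNA cells. The knockdown rests on 1 shRNA sequence in a selected pool, and whether a group's 2 libraries trace back to different cultures is not in the labels, so p-values measure only how these libraries spread, which may be technical. Library sizes, as read from the worth of 1 read, ran from 12.6 to 16.8 M reads.

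EMT is the programme by which epithelial cells loosen their junctions and take on mesenchymal traits, and TGF-β is one of its best known inducers. The SNAI and ZEB proteins bind E-box motifs in genes such as CDH1 (E-cadherin) and recruit corepressors to them, while TWIST proteins act as dimers with the E proteins, here TCF3 (also called E2A) and TCF4 (also called E2-2). SOX4 is an HMG-box transcription factor that TGF-β is known to induce in mammary epithelial cells, and the knockdown asks how the response to TGF-β runs with less of it.

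The promoters of PRRX1 and ZEB1 are shown because these genes were among the 3 factors that fell with SOX4 shRNA. Both sequences are RefSeq's, on the GRCh38.p14 assembly, from 250 bases before a start site to 50 bases after it, on the + strand. Capitals mark matches to the SOX core ACAAT or the E-box CACCTG on either strand, from 4 motifs searched, which also held the longer SOX form ACAAAG and the SMAD motif CAGAC. The PRRX1 window spans chr1:170663881-170664180 and the ZEB1 window, the one with most E-boxes of the 7 listed for that gene, spans chr10:31318966-31319265.
PRRX1: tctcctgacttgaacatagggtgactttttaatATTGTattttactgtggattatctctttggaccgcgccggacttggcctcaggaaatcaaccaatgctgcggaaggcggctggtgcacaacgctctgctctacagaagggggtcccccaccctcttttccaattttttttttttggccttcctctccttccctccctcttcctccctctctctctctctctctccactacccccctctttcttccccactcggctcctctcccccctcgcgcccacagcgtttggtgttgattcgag
ZEB1: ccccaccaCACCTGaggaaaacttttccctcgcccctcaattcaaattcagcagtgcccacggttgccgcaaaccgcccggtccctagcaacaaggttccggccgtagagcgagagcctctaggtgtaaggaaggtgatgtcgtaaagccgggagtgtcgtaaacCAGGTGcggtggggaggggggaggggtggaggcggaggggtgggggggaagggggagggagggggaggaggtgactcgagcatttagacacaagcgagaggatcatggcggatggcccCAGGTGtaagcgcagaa

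The PRRX1 window held 1 match to ACAAT, at position -217 from the start site and on the - strand, and none of the other 3 motifs. In the ZEB1 window CACCTG occurred 3 times, at -242, -85 and 33, and the other 3 motifs did not occur. None of the 7 ZEB1 windows held ACAAT or ACAAAG, and 2 of the 7 held CACCTG. Among all 35116 RefSeq promoters of the same length, 27.4% held ACAAT, 16.1% ACAAAG, 20.6% CACCTG and 45.3% CAGAC, so each motif is common. Promoter entries were found for 6 of the 10 factors (ZEB1, ZEB2, TWIST2, PRRX1, TCF3 and TCF4), and no entry was found for SNAI1, SNAI2, TWIST1 and FOXC2.

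SOX4 itself had 2.37 and 1.88 FPKM (fragments per kilobase of transcript per M mapped reads) in SOX4-shRNA cells given TGF-β and 0.923 and 1.02 FPKM in untreated SOX4-shRNA cells, against 18.7 and 17.6 FPKM in scrambled-shRNA cells given TGF-β and 8.74 and 8.04 FPKM in untreated scrambled-shRNA cells. The SOX4-shRNA groups lay below the scrambled-shRNA groups at both conditions, as the labels say. The log2 change of FPKM + 1 with SOX4 shRNA was -2.25 ± 0.13 (SE) in untreated cells and -2.62 ± 0.13 with TGF-β, with adjusted p of 0.000148 and 6.85e-05. All tests are limma fits over the 8 libraries, with Benjamini-Hochberg adjustment over all genes tested and a threshold of 0.05, and SE is the standard error of the fit. SOX4 also rose with TGF-β, by 0.66 ± 0.13 in SOX4-shRNA cells (adjusted p = 0.0216) and by 1.03 ± 0.13 in scrambled-shRNA cells (adjusted p = 0.00538). This scale understates changes of low genes, and the ratios of mean FPKM were 2.19 and 2.16.

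Most of the deposited values of at least 1 FPKM lacked their decimal mark, and 69 of the 248 values of these factors' transcripts were affected. The mark was put back from the whole number of reads that each value must stand for. Where that left a choice, the closeness of replicates was used, so the spread between replicates may be too small for such values. For ZEB1 and TCF4 whole reads were not used, only that closeness, counting error and the size of effects. Among the 80 levels of the 10 factors, 2 stayed uncertain, for FOXC2 and TCF3 in replicate 1 of untreated SOX4-shRNA cells, and these genes were not tested in comparisons with that group. PRRX1 and ZEB1 do not depend on this for their direction. A lost mark occurs only at 1 FPKM or more, and each of the 4 scrambled-shRNA libraries had such a value for both genes, while the totals in the SOX4-shRNA libraries stayed below 1 FPKM with their marks in place.

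The levels of these factors spanned a wide range. In untreated scrambled-shRNA cells SNAI2 averaged 90.3 ± 0.0359 FPKM (SD, n = 2) and led the group, followed by TCF3 at 34.1 ± 2.35 FPKM, TWIST2 at 12.5 ± 4.66 FPKM and TWIST1 at 5.38 ± 0.338 FPKM. TCF4, FOXC2, ZEB1 and PRRX1 lay close together, with means of 1.90, 1.82, 1.76 and 1.70 FPKM, and their libraries overlapped. ZEB2 averaged 0.664 ± 0.0673 FPKM and SNAI1 0.0659 ± 0.0188 FPKM, and these 2 genes failed the filter of at least 1 FPKM in at least 2 libraries and were tested only without it.

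**Figure D1:**
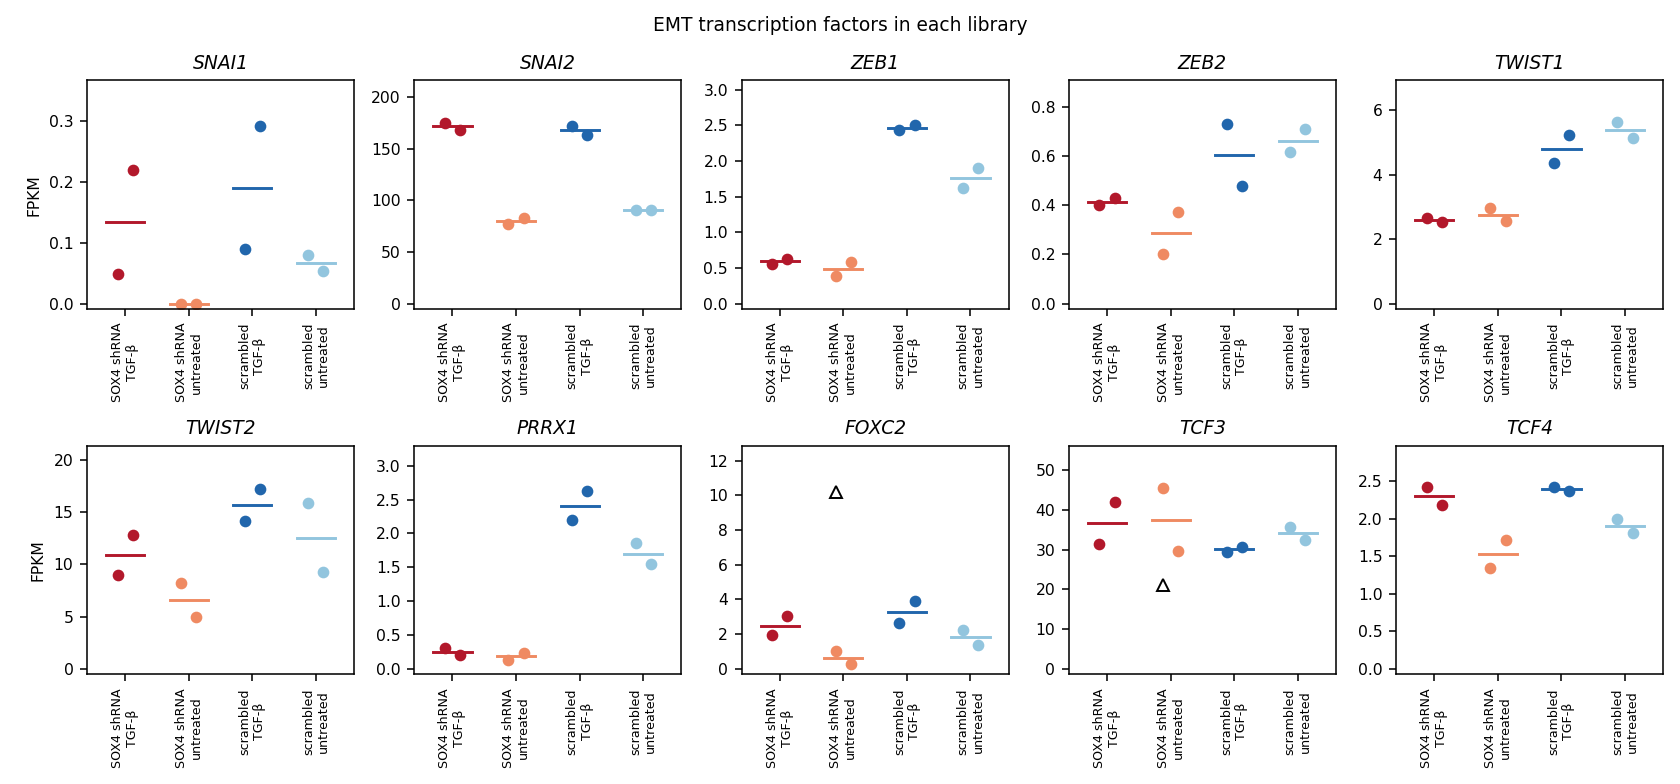
FPKM of the 10 factors in each library, with group means as bars, 2 libraries a group and a linear axis of its own for each gene. Open triangles are the other possible reading of a value whose decimal mark stayed uncertain, in FOXC2 (10.2 FPKM) and TCF3 (21.1 FPKM). ZEB1, ZEB2, TWIST1 and PRRX1 have all 4 SOX4-shRNA libraries below all 4 scrambled-shRNA libraries, and SNAI2 separates by TGF-β.

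SNAI2 (Slug) was the factor that rose with TGF-β. It had 175 and 168 FPKM in SOX4-shRNA cells given TGF-β, against 77.2 and 83.1 FPKM in untreated SOX4-shRNA cells. In scrambled-shRNA cells it had 172 and 163 FPKM with TGF-β, against 90.3 and 90.3 FPKM without. The treated libraries lay above the untreated ones without overlap in both lines, and the ratio of means was 2.14 in SOX4-shRNA cells and 1.86 in scrambled-shRNA cells. These levels stood for 2045 to 4884 reads a library. The log2 change of FPKM + 1 was 1.09 ± 0.10 in SOX4-shRNA cells (limma adjusted p = 0.000826) and 0.89 ± 0.10 in scrambled-shRNA cells (adjusted p = 0.00388). Without either TGF-β-treated scrambled-shRNA library, the second call missed the threshold at adjusted p = 0.075 and 0.065.

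With SOX4 shRNA, SNAI2 differed little. In the presence of TGF-β the change was 0.03 ± 0.10 (adjusted p = 0.929) and the libraries overlapped. Untreated SOX4-shRNA cells had lower values than untreated scrambled-shRNA cells in both libraries, with a change of -0.17 ± 0.10 and an adjusted p of 0.405.

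SNAI1 (Snail), the close relative of SNAI2, was at the edge of detection. It had 1 and 5 reads in SOX4-shRNA cells given TGF-β and no read in either untreated SOX4-shRNA library, against 2 and 6 reads in scrambled-shRNA cells given TGF-β and 2 and 1 reads in untreated scrambled-shRNA cells. In FPKM the treated libraries had 0.0476 and 0.219 in SOX4-shRNA cells and 0.0894 and 0.290 in scrambled-shRNA cells. A count of 0 allows up to 3 reads, or 0.144 and 0.129 FPKM in those 2 libraries, for counting error only. Fitted without a filter, the log2 changes with TGF-β were 0.18 ± 0.10 in SOX4-shRNA cells and 0.15 ± 0.10 in scrambled-shRNA cells, with adjusted p of 0.513 and 0.548. No difference was detectable at this depth at the 16 h sampled.

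TGF-β gave few other changes among the factors. Of the factors tested in SOX4-shRNA cells, 1 of 6 rose and 0 fell, where 7.40% of all 4353 genes tested were called, 5.47% higher and 1.93% lower. In scrambled-shRNA cells 1 of 8 rose and 0 fell, where 6.29% of 4357 genes were called, 4.36% higher and 1.93% lower. The called gene was SNAI2 in both. Genes tested were those with 1 transcript and restored marks, plus the totals of factors with several transcripts. By position alone, 6 of the 10 factors had both TGF-β-treated libraries above both untreated ones in SOX4-shRNA cells and 6 of the 10 in scrambled-shRNA cells, where 20.1% and 27.3% of all tested genes did. None of the 10 had both treated libraries lower in SOX4-shRNA cells and 1 did in scrambled-shRNA cells, where 23.5% and 35.1% of tested genes did. These counts take in SNAI1 and ZEB2, which the percentages for tested genes do not cover, and in SOX4-shRNA cells they rest on the reading used for FOXC2 and TCF3.

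PRRX1, a paired-related homeobox factor that promotes EMT and is expressed in mesenchyme, gave the largest ratio with SOX4 shRNA among the factors tested. It had 0.301 and 0.208 FPKM in SOX4-shRNA cells given TGF-β, against 2.2 and 2.62 FPKM in scrambled-shRNA cells given TGF-β. Untreated SOX4-shRNA cells had 0.133 and 0.238 FPKM, against 1.85 and 1.54 FPKM in untreated scrambled-shRNA cells. Every SOX4-shRNA library was below each of the scrambled-shRNA ones, with 7 to 16 reads against 75 to 138 reads. The mean in scrambled-shRNA cells was 9.45 times that in SOX4-shRNA cells with TGF-β and 9.17 times without, close to the ratios for SOX4 itself, 8.54 and 8.64.

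On the log2 scale of FPKM + 1 PRRX1 fell by 1.44 ± 0.14 with TGF-β (limma adjusted p = 0.00192) and by 1.19 ± 0.14 without (adjusted p = 0.00447). With a pseudocount of 0.1 FPKM in place of 1 the changes were -2.83 and -2.68. PRRX1 passed the filter only through the scrambled-shRNA libraries. Without a filter it was called as well, with adjusted p of 0.00566 with TGF-β and 0.0138 in untreated cells.

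ZEB1, the factor that represses CDH1 and stands in mutual repression with the miR-200 family, showed the same direction. ZEB1 had 0.556 and 0.626 FPKM in SOX4-shRNA cells given TGF-β, against 2.43 and 2.50 FPKM in scrambled-shRNA cells given TGF-β. In untreated cells it had 0.390 and 0.579 FPKM with SOX4 shRNA, against 1.63 and 1.90 FPKM with scrambled shRNA. The 2 sets of libraries did not overlap. The scrambled-shRNA mean was 4.17 times the SOX4-shRNA mean with TGF-β and 3.64 times without. Both ratios use the lowest possible reading in each scrambled-shRNA library.

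ZEB1 fell by 1.12 ± 0.13 with TGF-β (limma adjusted p = 0.00389) and by 0.90 ± 0.13 in untreated cells (adjusted p = 0.0106). It too passed the filter only through scrambled-shRNA libraries, and was called without a filter at adjusted p of 0.0131 and 0.0298. The call in untreated cells was lost without either untreated scrambled-shRNA library (adjusted p = 0.0628 and 0.0836) and without replicate 1 of untreated SOX4-shRNA cells (0.0523), and the call with TGF-β without either TGF-β-treated scrambled-shRNA library, where the highest adjusted p was 0.0589. TGF-β itself gave a ZEB1 change of 0.10 ± 0.13 in SOX4-shRNA cells (adjusted p = 0.707) and 0.33 ± 0.13 in scrambled-shRNA cells (adjusted p = 0.185).

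ZEB2, the paralogue of ZEB1, was lower with SOX4 shRNA in every library but did not pass a test. It had 0.400 and 0.432 FPKM in SOX4-shRNA cells given TGF-β, against 0.732 and 0.479 FPKM in scrambled-shRNA cells given TGF-β. The untreated libraries had 0.201 and 0.372 FPKM with SOX4 shRNA, against 0.616 and 0.711 FPKM with scrambled shRNA. Fitted without a filter, its change with SOX4 shRNA was -0.18 ± 0.11 with TGF-β (adjusted p = 0.613) and -0.37 ± 0.11 without (adjusted p = 0.195).

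TWIST1, a bHLH factor of mesoderm and of EMT, was also lower in SOX4-shRNA cells. It had 2.64 and 2.52 FPKM in SOX4-shRNA cells given TGF-β, against 4.36 and 5.22 FPKM in scrambled-shRNA cells given TGF-β. Untreated cells had 2.95 and 2.55 FPKM with SOX4 shRNA, against 5.62 and 5.14 FPKM with scrambled shRNA. No SOX4-shRNA library reached a scrambled-shRNA library, with 54 to 60 reads against 95 to 138. The scrambled-shRNA mean was 1.86 times the SOX4-shRNA mean with TGF-β and 1.95 times without.

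TWIST1 fell by 0.69 ± 0.13 with TGF-β (limma adjusted p = 0.0310) and by 0.77 ± 0.13 in untreated cells (adjusted p = 0.0182), but this was the least stable of the calls. Under 18 other settings the call with TGF-β was kept in 8, with adjusted p between 0.00721 and 0.288, and the call in untreated cells in 13, with adjusted p between 0.00338 and 0.133. Without a filter on low genes its adjusted p was 0.0894 with TGF-β and 0.0637 in untreated cells. The TWIST1 difference with TGF-β itself was -0.07 ± 0.13 in SOX4-shRNA cells (adjusted p = 0.828) and -0.14 ± 0.13 in scrambled-shRNA cells (adjusted p = 0.569).

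TWIST2, the paralogue of TWIST1, was lower with SOX4 shRNA as well, but its replicates lay further apart. It had 8.95 and 12.8 FPKM in SOX4-shRNA cells given TGF-β, against 14.1 and 17.2 FPKM in scrambled-shRNA cells given TGF-β. In untreated cells the values were 8.25 and 4.95 FPKM with SOX4 shRNA, against 15.8 and 9.25 FPKM with scrambled shRNA. The libraries with SOX4 shRNA were lower at each condition without overlap, but the changes of -0.50 ± 0.30 with TGF-β and -0.82 ± 0.30 without missed the threshold (adjusted p = 0.477 and 0.187). With replicate numbers crossed in the TGF-β groups as a block, a setting chosen after the data were seen, both were called (adjusted p = 0.0337 and 0.00308). The TWIST2 differences with TGF-β were 0.66 ± 0.30 in SOX4-shRNA cells, where both treated libraries were higher, and 0.34 ± 0.30 in scrambled-shRNA cells, where the libraries overlapped (adjusted p = 0.234 and 0.549). The whole reads behind TWIST2 rest on weaker evidence than those behind PRRX1 or TCF3.

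Counted over the tested factors, 0 of 6 rose and 3 of 6 fell with SOX4 shRNA in untreated cells, where 4.57% of 4357 genes were called, 1.01% higher and 3.56% lower. With TGF-β 0 of 8 rose and 3 of 8 fell, where 4.16% of 4356 genes were called, 1.12% higher and 3.03% lower. The 3 called were PRRX1, ZEB1 and TWIST1 in both, and since 2 of them passed the filter only where they were high, the counts are given as a description. By position, 9 of the 10 factors had both SOX4-shRNA libraries below both scrambled-shRNA libraries in untreated cells and 5 of 10 with TGF-β, where 24.6% and 23.0% of all tested genes did. The other possible reading takes FOXC2 out of the 9 and puts TCF3 among them. Both were higher for 0 of 10 in untreated cells and for 1 of 10 with TGF-β, where 21.6% and 23.2% of tested genes were. These counts by position take in SNAI1 and ZEB2, which the percentages for tested genes do not cover. In untreated cells SNAI1 rests on 0 reads in both SOX4-shRNA libraries against 2 and 1 reads. The 2 conditions share no libraries, but they share the SOX4 shRNA, the scrambled control and 1 spread fitted over all 8 libraries. The calls at the 2 conditions are therefore not independent. In the fit of genes with 1 transcript alone, 1 of 2 and 1 of 3 factors were called for SOX4 shRNA without and with TGF-β, where 4.30% and 4.02% of genes were, and 1 of 2 and 1 of 3 for TGF-β in SOX4-shRNA and scrambled-shRNA cells, where 7.40% and 6.34% were.

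**Figure D2:**
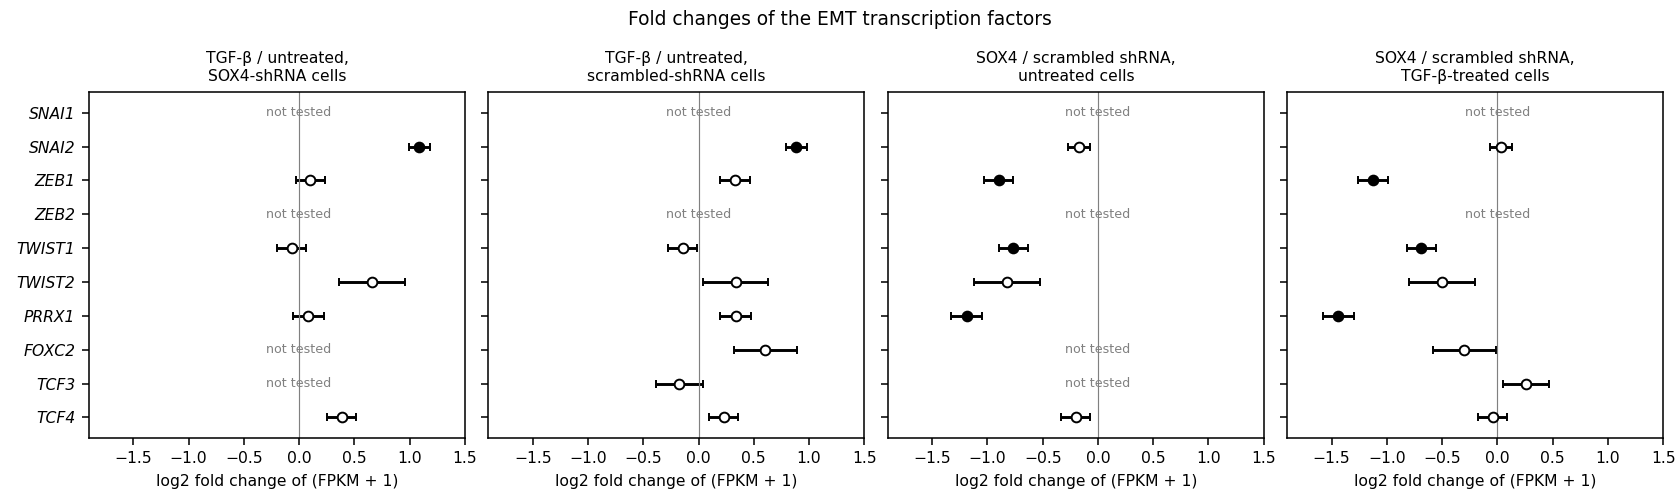
Log2 fold changes of FPKM + 1 in the 4 comparisons, with standard errors of the limma fit as bars and filled points for adjusted p under 0.05. SNAI2 is filled in both TGF-β comparisons, and PRRX1, ZEB1 and TWIST1 are filled and below 0 in both SOX4-shRNA comparisons.

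The factors' response to TGF-β was not found to differ between SOX4-shRNA and scrambled-shRNA cells. The test of that difference by limma called 0 of 4344 genes, and 119 genes had an unadjusted p under 0.05. Limma-voom on whole reads, which does not cover ZEB1 and TCF4, also called 0. Among the 6 factors tested, none had an unadjusted p under 0.05 and the lowest was 0.18. For PRRX1 the difference was -0.25 ± 0.20, for ZEB1 -0.23 ± 0.19 and for SNAI2 0.20 ± 0.14, each with a limma adjusted p of 0.994.

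FOXC2, a forkhead factor of mesenchymal and vascular development, had 1.94 and 3.03 FPKM in SOX4-shRNA cells given TGF-β, against 2.64 and 3.94 FPKM in scrambled-shRNA cells given TGF-β. The untreated values were 1.02 and 0.261 FPKM with SOX4 shRNA, against 2.26 and 1.39 FPKM with scrambled shRNA, and the first of these could also be 10.2 FPKM. The 2 treated groups overlapped, and their change was -0.30 ± 0.29 (adjusted p = 0.698). TGF-β in scrambled-shRNA cells gave 0.60 ± 0.29 (adjusted p = 0.249).

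None of the changes tested in the E proteins passed the threshold. TCF3 had 31.3 and 41.9 FPKM in SOX4-shRNA cells given TGF-β, against 29.5 and 30.7 FPKM in scrambled-shRNA cells given TGF-β, a change of 0.26 ± 0.21 (adjusted p = 0.644). Its untreated values were 45.5 (or 21.1) and 29.5 FPKM with SOX4 shRNA, against 35.7 and 32.4 FPKM with scrambled shRNA. TCF4 had 2.42 and 2.18 FPKM in SOX4-shRNA cells given TGF-β, against 1.34 and 1.72 FPKM in untreated SOX4-shRNA cells, and 2.42 and 2.36 FPKM in scrambled-shRNA cells given TGF-β, against 1.99 and 1.81 FPKM without. The treated libraries of TCF4 were the higher ones in both lines, but changes of 0.39 ± 0.13 and 0.23 ± 0.13 missed the threshold (adjusted p = 0.125 and 0.346). With SOX4 shRNA the TCF4 difference was -0.04 ± 0.13 with TGF-β (adjusted p = 0.932) and -0.20 ± 0.13 in untreated cells (adjusted p = 0.475), where both SOX4-shRNA libraries were the lower ones.

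The transcripts behind a gene total were far less steady than the total. ZEB1 had 5 of 6 transcripts that reached 0.1 FPKM in some library, and 4 different ones led in at least 1 library. TCF4 had 8 of 12 such transcripts with 2 leading, and ZEB2 2 of 3 with both leading somewhere. For PRRX1, NM_022716 led in 7 libraries, while in untreated scrambled-shRNA replicate 2 NM_006902 had 1.06 FPKM and NM_022716 0.487 FPKM. NM_003200 led for TCF3 and NM_001271893 for TWIST2 in all 8 libraries. In a fit of single transcripts at the reading of least spread, none of the factors' transcripts that could be tested was called, where 0.142%, 0.175%, 0.176% and 0.0938% of the 6262 to 6398 transcripts tested were called for TGF-β in SOX4-shRNA cells, TGF-β in scrambled-shRNA cells, SOX4 shRNA without TGF-β and SOX4 shRNA with it. SNAI2 could not be tested in that fit, and TWIST1, called in the fit of genes, was tested and not called.

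**Figure D3:**
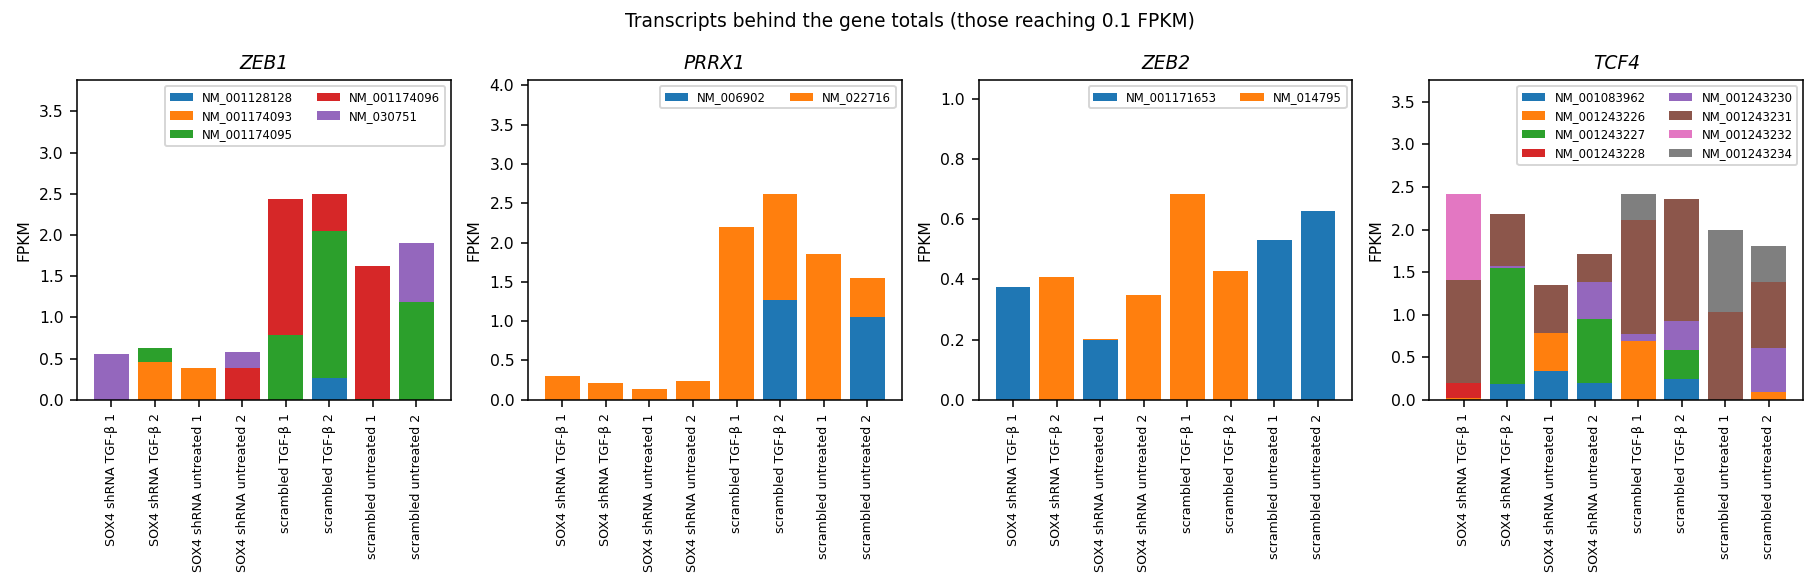
FPKM of the transcripts that reached 0.1 FPKM in some library, stacked to the gene total, for ZEB1, PRRX1, ZEB2 and TCF4 in the 8 libraries. The share of each transcript shifts between replicates of a group, most in ZEB1 and TCF4, while the stack heights of ZEB1 and PRRX1 separate SOX4-shRNA from scrambled-shRNA libraries.

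On hg19, the build of the deposited table per the submitters' processing notes, PRRX1 lies on chromosome 1 from 170631869 to 170708562 on the + strand, with 4 exons in its canonical transcript and no exon overlap with another gene. ZEB1 lies on chromosome 10 from 31607424 to 31818742 on the + strand, with 9 exons, and TWIST1 on chromosome 7 from 19060614 to 19157259 on the - strand, with 2 exons. ZEB1 shares exonic sequence with ZEB1-AS1 on the opposite strand, ZEB2 with ZEB2-AS1, FOXC2 with FOXC2-AS1 and TCF4 with TCF4-AS2 and RPL21P126. ZEB2 also shares exonic sequence with AC009951.1 on its own strand, which no strand setting would separate. TWIST1 and SNAI2, on chromosome 8, each overlap an unnamed gene on the opposite strand. The strand setting of the authors' counting is not given in the sources used here, so reads of these genes and of their partners cannot be told apart.

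Genes tied to the factors moved unevenly. Their lists were chosen with earlier results of these data known, so the counts are given as a description. Among 18 mesenchymal genes that typically rise in EMT, 9 were tested in SOX4-shRNA cells and 7 rose with TGF-β, where 5.47% of all tested genes were called higher, with a median change of 1.25 against -0.04 over all tested genes. In scrambled-shRNA cells 9 of 10 rose, where 4.36% of all tested genes were called higher, with a median of 0.88 against -0.04. With SOX4 shRNA 7 of 9 fell in untreated cells, with a median of -1.38 against -0.02 over all tested genes. With TGF-β present, 7 of 10 fell with SOX4 shRNA, with a median of -1.02 against 0.01. Of all tested genes, 3.56% and 3.03% were called lower in these 2 comparisons.

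VIM (vimentin, the intermediate filament of mesenchymal cells) had 351 and 320 FPKM in SOX4-shRNA cells given TGF-β and 139.7 and 139.9 FPKM in untreated SOX4-shRNA cells, against 744 and 708 FPKM in scrambled-shRNA cells given TGF-β and 440.2 and 440.2 FPKM in untreated scrambled-shRNA cells. It rose by 1.26 ± 0.09 with TGF-β in SOX4-shRNA cells and fell by 1.65 ± 0.09 with SOX4 shRNA in untreated cells (limma adjusted p = 0.000500 and 0.000148). CDH11, a mesenchymal cadherin, had 6.31 and 6.12 FPKM in SOX4-shRNA cells given TGF-β and 1.98 and 2.09 FPKM in untreated SOX4-shRNA cells, against 34.2 and 33.6 FPKM in scrambled-shRNA cells given TGF-β and 15.4 and 17.2 FPKM in untreated scrambled-shRNA cells. Its SOX4-shRNA libraries were all below the scrambled-shRNA ones. COL1A2, a chain of collagen I, fell by 1.62 ± 0.12 with SOX4 shRNA in untreated cells and by 1.53 ± 0.12 with TGF-β, with adjusted p of 0.000327 and 0.000663. FBN1 (fibrillin) fell by 1.71 ± 0.13 with TGF-β present.

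CDH2 (N-cadherin) rose by 1.95 ± 0.13 with TGF-β in SOX4-shRNA cells and by 1.49 ± 0.13 in scrambled-shRNA cells. MMP9, a secreted protease, rose by 3.13 ± 0.23 and 2.06 ± 0.23 in the same order, and MMP14, a membrane-bound protease, rose by 1.40 ± 0.12 in SOX4-shRNA cells. CDH2 also fell with SOX4 shRNA in untreated cells, by 1.65 ± 0.13 (adjusted p = 0.000444). With TGF-β it had 11.1 and 10.1 FPKM in SOX4-shRNA cells against 26.4 and 24.6 FPKM in scrambled-shRNA cells. Of the 9 mesenchymal genes for which the difference between the 2 responses was tested, 0 were called.

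Of 21 epithelial genes that SNAI and ZEB proteins repress, 9 were tested, and CDH1 was not among them because its decimal mark could not be restored. In each TGF-β comparison 2 of the 9 were called. Of all tested genes, 7.40% were called in SOX4-shRNA cells and 6.29% in scrambled-shRNA cells. With SOX4 shRNA 0 of 9 were called in untreated cells and 1 of 9 with TGF-β, where 4.57% and 4.16% of tested genes were. With TGF-β, CLDN4, a tight-junction claudin, rose by 1.28 ± 0.22 in SOX4-shRNA cells and by 1.19 ± 0.22 in scrambled-shRNA cells. MAL2, a protein of apical transport, fell by 0.71 ± 0.15 and 0.64 ± 0.15 in the same order. With SOX4 shRNA CLDN1, another claudin, rose by 0.64 ± 0.12 with TGF-β present (adjusted p = 0.0271), with 34.1 and 28.8 FPKM in SOX4-shRNA cells against 20.5 and 19.0 FPKM in scrambled-shRNA cells.

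Among 12 epithelial factors that oppose EMT, 5 were tested. With TGF-β in SOX4-shRNA cells KLF4 rose by 0.65 ± 0.13 and OVOL1 by 0.86 ± 0.21 (limma adjusted p = 0.0253 and 0.0481). These were 2 of the 5, where 5.47% of all tested genes were called higher. In the other comparisons 0 were called, also in the test of the difference between the 2 responses. KLF4 was higher with TGF-β in scrambled-shRNA cells too, at 21.6 and 19.2 FPKM against 17.3 and 14.7 FPKM, while OVOL1 overlapped there. None was called among the tested members of the ID inhibitors of E proteins (1 of 4 tested), the other EMT factors (2 of 15), the corepressors and stability factors of SNAIL and ZEB (3 of 14) and the SMAD pathway (2 of 8).

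**Figure D4:**
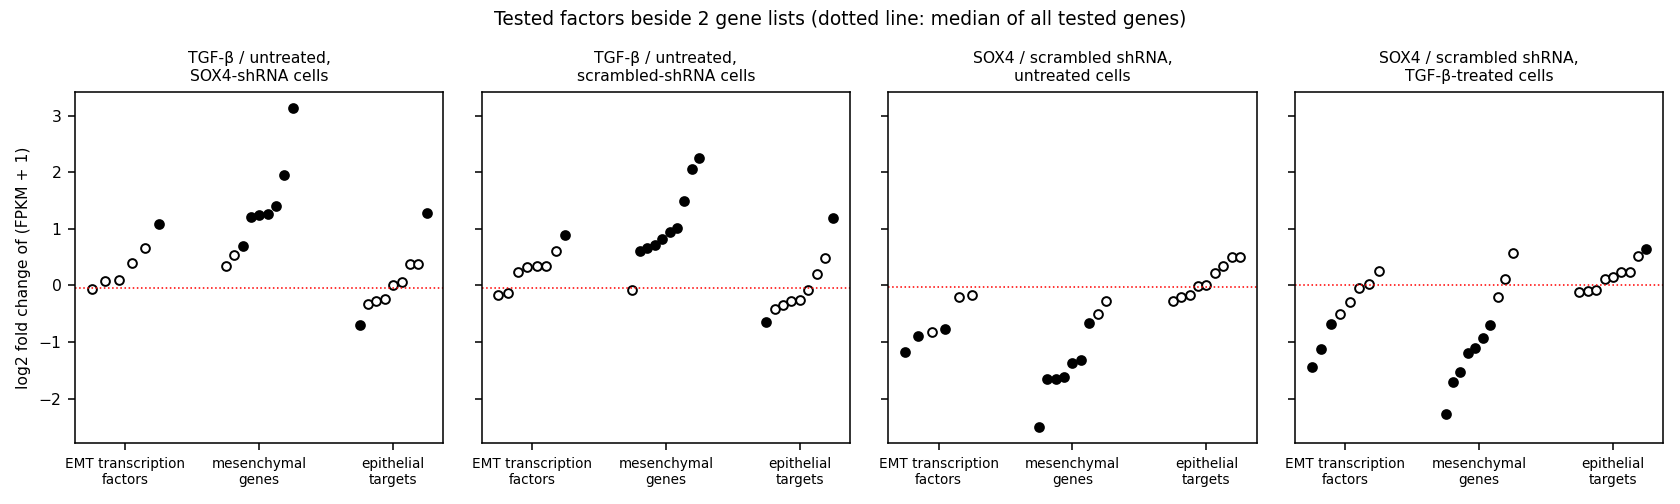
Log2 fold changes of FPKM + 1 of the tested EMT factors, mesenchymal genes and epithelial targets in the 4 comparisons, 1 point a gene, filled where adjusted p was under 0.05. The dotted line is the median of all tested genes. Mesenchymal genes lie mostly above the line with TGF-β and mostly below it with SOX4 shRNA, and epithelial targets lie on both sides.

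The cells carried the markers of basal mammary epithelium, with KRT5 between 2886 and 3945 FPKM and KRT14 between 1446 and 2875 FPKM. Of the luminal list KRT18 was high as well, while ELF5 was at 0 and KRT19 at or below 0.376 FPKM in every library. The luminal sum over 5 of 7 genes, nearly all KRT18, moved with the SOX4-shRNA result, with 439 to 443 FPKM in SOX4-shRNA cells given TGF-β and 455 to 485 FPKM in untreated SOX4-shRNA cells, against 494 to 499 FPKM in scrambled-shRNA cells given TGF-β and 567 to 624 FPKM in untreated scrambled-shRNA cells. Endothelial markers summed to at most 0.185 FPKM and blood markers to at most 0.451 FPKM in every library, with CDH5, CD3E and HBB at 0. Fibroblast markers moved with it too. Their sum over 5 of 6 genes was 56.3 to 68.3 FPKM in SOX4-shRNA cells given TGF-β and 38.5 to 51.5 FPKM in untreated SOX4-shRNA cells, against 86.3 to 93.7 FPKM in scrambled-shRNA cells given TGF-β and 71.2 to 79.8 FPKM in untreated scrambled-shRNA cells. THY1 made up most of it and fell by 0.72 ± 0.16 with SOX4 shRNA in untreated cells (limma adjusted p = 0.0497), the only call among the markers of this list, of which 1 was tested.

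DCN, a fibroblast proteoglycan, had 0.231 and 0.177 FPKM in SOX4-shRNA cells given TGF-β and 0.362 and 0.156 FPKM in untreated SOX4-shRNA cells, against 0.975 and 0.936 FPKM in scrambled-shRNA cells given TGF-β and 1.42 and 1.10 FPKM in untreated scrambled-shRNA cells. LUM and PDGFRA stayed at or below 0.105 FPKM in every library. PDGFRB had 0.934 and 1.06 FPKM in SOX4-shRNA cells given TGF-β and 0.744 and 0.514 FPKM in untreated SOX4-shRNA cells, against 1.59 and 2.18 FPKM in scrambled-shRNA cells given TGF-β and 1.23 and 1.12 FPKM in untreated scrambled-shRNA cells. The part of the fibroblast, luminal and basal markers in the fall of PRRX1, ZEB1 and TWIST1 was not tested, and in bulk RNA fewer cells of a type and less RNA per cell cannot be told apart. Among basal markers KRT6B fell with SOX4 shRNA, by 1.65 ± 0.11 in untreated cells and by 1.05 ± 0.11 with TGF-β, and KRT17 fell by 1.02 ± 0.12 with TGF-β, while KRT6B rose by 0.91 ± 0.11 with TGF-β in SOX4-shRNA cells. EPCAM of the same list lay the other way, with 99.4 and 69.6 FPKM in SOX4-shRNA cells given TGF-β against 59.1 and 55.8 FPKM in scrambled-shRNA cells given TGF-β, and 97.0 and 113.7 FPKM in untreated SOX4-shRNA cells against 71.6 and 75.6 FPKM in untreated scrambled-shRNA cells. Its differences of 0.53 ± 0.17 and 0.51 ± 0.17 missed the threshold (limma adjusted p = 0.166 for both). KRT14 was higher with SOX4 shRNA in both libraries given TGF-β, with 2837 and 2875 FPKM against 2596 and 2649 FPKM. In untreated cells it was lower, with 1800 and 1446 FPKM against 2106 and 1868 FPKM. KRT5 was lower with SOX4 shRNA at both conditions. The basal sum over 4 of 9 genes was also lower at both. It was 5871 to 5946 FPKM against 6048 to 6148 FPKM with TGF-β. Untreated cells had 4525 to 5226 FPKM against 5505 to 6206 FPKM.

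Genes with 1 transcript and restored marks were searched for patterns like those of the factors with whole reads and 1 transcript. The most similar genes over the 8 libraries were named by Pearson's r of log2(FPKM + 1), and other genes were not searched. For SNAI2 these were ZBED2 (0.992), RTTN (0.991) and COL4A1 (0.989). For TWIST1 they were H2BC12 (0.986), PSKH1 (0.986) and RPL19 (0.985), and for FOXC2 SFN (0.992), NAGK (0.989) and CDA (0.981). These are descriptions over 8 libraries in 4 groups, and libraries of a group share its condition. Those for FOXC2 use 1.02 FPKM in replicate 1 of untreated SOX4-shRNA cells, and would differ at its other reading of 10.2 FPKM.

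The calls differed in how many other settings they survived. SNAI2 with TGF-β in SOX4-shRNA cells kept its call in 18 of 18 and PRRX1 with SOX4 shRNA in 17 of 17 in both conditions. ZEB1 kept its call in 12 of 16 in untreated cells and in 14 of 16 with TGF-β. No setting turned a called change to the other direction.

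**Figure D5:**
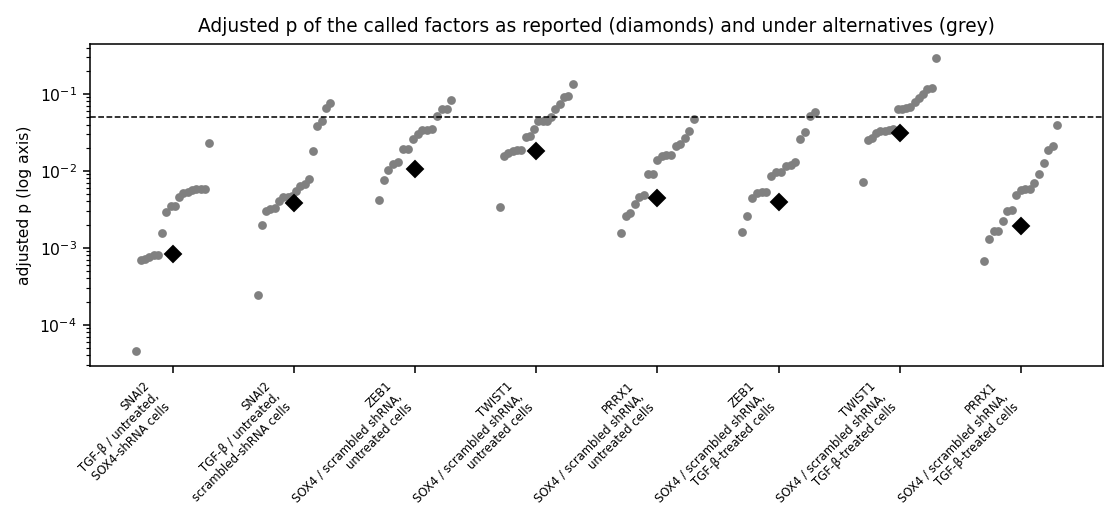
Adjusted p on a log axis for each factor called, as reported (diamonds) and under each other setting (grey points), with the threshold of 0.05 as a dashed line. PRRX1 and SNAI2 in SOX4-shRNA cells stay below the line throughout, and TWIST1 with TGF-β present crosses it most often, in 10 of 18 settings.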

How the data were processed

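Per the labels, RNA of HMLE cells was made into stranded libraries after ribosomal RNA removal, though the same labels give the molecule as polyA RNA, and sequenced as single reads. The tools named in the submitters' processing notes are Cuffdiff, Cufflinks 2.2.1 and TopHat2 2.0.9, with hg19 as the build. The authors deposited 1 table of FPKM values for 48175 RefSeq transcripts and 8 libraries, and no column was left unused (0). The scaling between libraries is not given in the sources used here.

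Of the deposited values, 34.1% had lost their decimal mark, and 13.9% were in damaged exponent notation below 0.0001 FPKM and were set to 0. Since each FPKM value stands for whole reads, lengths and readings were searched for whole reads within 0.003 reads in at least 6 of 8 libraries, over 5739 genes with 1 transcript, and 4365 (76.1%) were restored. With digits replaced, 1 of 1148 genes passed. In data simulated from genes already restored, with the spread that the weighing assumes, 541 of 546 genes were found. At a weight of at least 0.95, 539 were read rightly and 0 wrongly. No gene with several transcripts was simulated. Remaining readings were weighed by replicate spread, counting error and effect size, and a gene was tested where readings within 0.2 log10 held a weight of at least 0.95. The weighing rule was revised after values were seen. For the 6 factors with several transcripts, gene totals were added to the fit after the data were seen. Whole summed reads were searched for TWIST2, PRRX1 and TCF3 over lengths in windows. The readings of ZEB1 and TCF4 rest on the weighing alone, not on whole reads. For ZEB1, lengths were also searched along a chain of transcripts, apart from the fit. The solution with the closest lengths gave the readings used in the scrambled-shRNA libraries it covered. All ZEB1 readings used were the lowest possible, so the search could not give lower ones. Each of the 23 other solutions gave a higher reading in at least 1 scrambled-shRNA library. The next closest put untreated scrambled-shRNA replicate 2 at 8030 reads, against 136 reads in the closest.

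Genes with at least 1 FPKM in at least 2 libraries were fitted as log2(FPKM + 1) in limma 3.58.1 (R 4.3.3), with an intensity trend, 4 groups and 4 residual degrees of freedom. The design foresaw genes with 1 transcript. That fit gave SNAI2 adjusted p of 0.000823 and 0.00386 with TGF-β and TWIST1 0.0186 and 0.0315 with SOX4 shRNA. The values in the text come from the fit with the totals. On simulated data for the TGF-β comparison in SOX4-shRNA cells, 18% of genes changed by 0.5 log2 and 90% of those changed by 1 were called. Whole reads in tested genes summed to 3.34 to 4.5 M a library.

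Symbols matched 47097 transcripts (97.76%). Replicates differed by more than counting noise, with a chi-square of 5.25 to 22.3 per gene. Named are all 10 factors, SOX4, from each list the called members (at most 4 a comparison by p), and 3 genes most alike to each factor with whole reads. A called list member that this rule would name is not reported here. The members and lists were chosen with earlier results of these data known, and the promoter motifs and the ZEB1 window after the sequences were seen. Gene positions are from GENCODE 44 lifted to GRCh37. Alternatives were other pseudocounts and filters, scaling, no trend, fewer groups, a replicate block, each library left out, and limma-voom on whole reads.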

Additional observations from a re-analysis of the deposited data

How the results depend on the processing

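Counts of factors called are given for the fit of genes with 1 transcript (3 factors at most) and for the fit with gene totals. With 1 transcript, the single call with SOX4 shRNA in untreated cells, TWIST1, became 0 without a filter, with only the groups compared in the fit, and with all kept genes at the reading of least spread. With TGF-β present that call became 0 under the same settings and under limma-voom. With gene totals the 3 calls in untreated cells became 1 with at least 5 FPKM in 2 libraries, which removes PRRX1 and ZEB1 from the test, and 1 with only the groups compared. The 3 calls with TGF-β present became 1 at 5 FPKM and 1 under limma-voom, which covers PRRX1 and not ZEB1. Leaving out 1 library at a time, the counts with 1 transcript ran from 0 to 1 for TGF-β in scrambled-shRNA cells and for SOX4 shRNA at both conditions. With gene totals they ran from 0 to 1 for TGF-β in scrambled-shRNA cells and from 1 to 3 for SOX4 shRNA at both conditions. At 4.57% and 4.16% of all tested genes called, these are small counts.

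Same-numbered deviations correlated at 0.443 and 0.25 between groups of the same treatment. Over the other 4 of the 6 pairs of groups the correlations lay between -0.593 and -0.216. Same-numbered libraries thus went together within a treatment, where the SOX4-shRNA comparisons lie, and opposite ways across treatments. These signs are those of numbers crossed between treatments, and the reported fit uses no block. With the replicate block, the 1-transcript count was 0 for SOX4 shRNA in untreated cells and 0 with TGF-β present, and 116 and 84 genes were called in all. With numbers crossed in the TGF-β groups, chosen after the data were seen, 2 factors were called for TGF-β in scrambled-shRNA cells in either fit and 2 in SOX4-shRNA cells with gene totals, and 4 of 6 and 4 of 8 for SOX4 shRNA without and with TGF-β, with 584 and 443 genes called in all. Of the 80 levels, 9 would differ at the lowest reading of every lost mark and 40 at the highest. The other reading in replicate 1 of untreated SOX4-shRNA cells gives a mean of 5.24 FPKM for FOXC2 in place of 0.642, and 25.3 FPKM for TCF3 in place of 37.5. Depth limits SNAI1, with at most 6 reads a library, and PRRX1 in SOX4-shRNA cells, with at most 16.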
